A study of Danio rerio with 12 samples.

Results

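*fgf8a*, *fgfr4* and *dusp6* are a ligand, a receptor and a feedback inhibitor of fibroblast growth factor (FGF) signaling. They were taken as a group for these roles, with earlier results of the same arrays already known, so their counts are not those of unselected genes. They are 3 of the 8793 genes that have a probe set under a single gene symbol on the array. Every probe set annotated to them was taken, which gave 4 of the 15502 probe sets tested: 1 for *fgf8a*, 1 for *fgfr4*, and a bright and a dim one for *dusp6*. Whole zebrafish embryos of the TL strain were compared at 3 stages: blastulae whose cells covered 30% of the yolk by epiboly (30%E), gastrulae at 75% (75%E), and embryos at the end of gastrulation, the tailbud stage (TB). The authors report that epiboly was delayed by the knockdown below and was not complete when normal embryos were at tailbud. They saw the delay mainly after the shield stage, which lies between 30%E and 75%E. Whether knockdown samples were staged by age or by form is not given in the sources used here, and the part of this delay in the values was not tested. At each stage, 2 samples came from uninjected wild-type (WT) embryos and 2 from quadruple knockdown (QKD) embryos, in which antisense morpholino oligonucleotides (MOs) blocked translation of the 4 B1 *sox* genes *sox2*, *sox3*, *sox19a* and *sox19b*. Per the labels, each sample was the RNA of 100 embryos, hybridised to its own Affymetrix zebrafish array, where several short probes together read a transcript and no second dye is used. The controls had received no injection and no control MO, so the effect of injection itself and that of the B1 *sox* knockdown cannot be told apart in these groups.

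FGFs are secreted proteins that bind receptor tyrosine kinases together with heparan sulfate and pass their signal through Ras and the MAP kinase ERK to ETS family transcription factors. The same signal switches on its own inhibitors, among them Sprouty proteins, Il17rd (Sef) and the ERK phosphatase Dusp6, so transcripts of these inhibitors are widely used as readouts of the pathway. In the zebrafish blastula and gastrula, FGF ligands are made at the margin, where they act in mesoderm formation and dorsoventral patterning, and later *fgf8a* is expressed at the midbrain-hindbrain boundary.

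The deposited signals were RMA values on a linear scale. The median signal was 73.5 to 76.6 on the 12 arrays, and the upper quartile 273 to 319.8. MOs of this kind block the translation of an RNA, so the RNA level of the targeted genes does not measure the knockdown. The *sox2* signal was 35.5 and 51.5 in QKD and 82.0 and 82.2 in WT embryos at 30%E, and 3328 and 3347 against 697 and 705 at 75%E. *sox3* and *sox19b* were higher in QKD embryos at each of the 3 stages, as was *sox19a* at 75%E and TB. All differences are given on the log2 scale as QKD minus WT, with their standard error (SE) from limma, and a probe set is said to have risen or fallen where its Benjamini-Hochberg adjusted p, over all 15502 probe sets, was under 0.05. The labels call the samples of a group biological replicates, and 2 arrays per group limit the precision of every value.

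All 4 probe sets were lower in QKD embryos at 30%E. At that stage the *fgf8a* signal was 309.7 ± 6.87 in WT and 115.0 ± 6.76 in QKD embryos, and that of *fgfr4* 1093 ± 28.5 and 378.3 ± 28.4 (SD, n = 2). The 3 genes then parted. *fgf8a* reached the WT level at 75%E and was below it again at TB, and the brighter *dusp6* probe set stayed at 0.54 to 0.56 of the WT signal throughout. *fgfr4* came nearer to the WT level, by a change that passed the test from 30%E to TB but not from 75%E to TB.

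**Figure D1:**
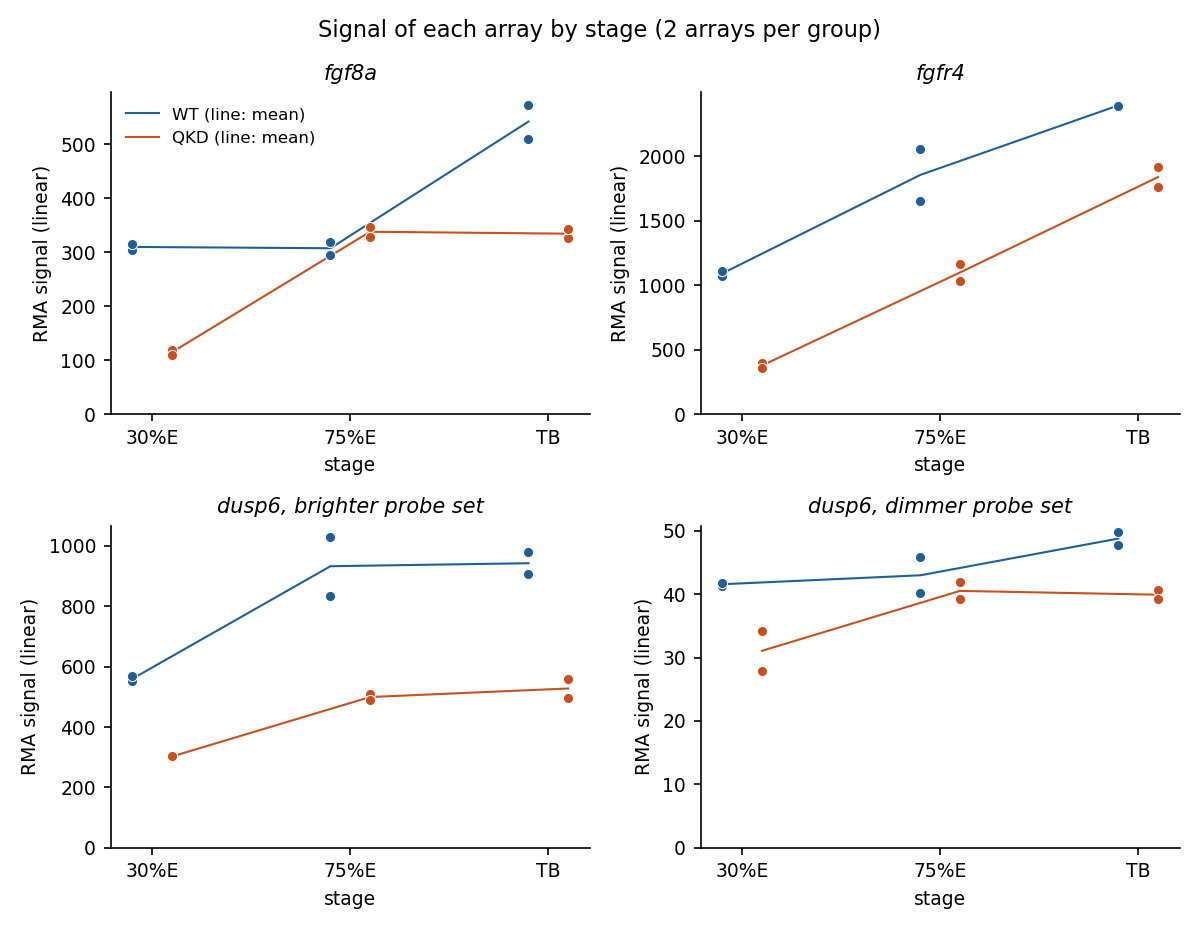
RMA signal on a linear scale (vertical axis, from 0) at 30%E, 75%E and TB (horizontal axis) for each of the 4 probe sets. Points are single arrays, 2 per group, blue for WT and orange for QKD, and lines join the group means. QKD arrays lie below WT arrays in every panel at 30%E and TB, while at 75%E those of *fgf8a* lie just above WT and those of the dimmer *dusp6* probe set overlap with WT.

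*fgf8a* encodes a secreted ligand of the Fgf8 subfamily, needed in zebrafish for the midbrain-hindbrain boundary and the cerebellum. At 30%E its signal was 304.8 and 314.5 on the WT arrays and 119.7 and 110.2 on the QKD arrays. The groups did not overlap, and both QKD arrays were the lowest of all 12. The difference was -1.43 ± 0.10 (SE), a WT level 2.70-fold that of QKD (limma, adjusted p = 1.07e-05), and of the 15502 probe sets 71 had a lower value.

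At 75%E the *fgf8a* signal was 318.9 and 295.7 in WT against 346.9 and 328.7 in QKD embryos. Here both QKD arrays were above both WT arrays, by a margin that did not pass the test (0.14 ± 0.10, 95% interval -0.087 to 0.36, adjusted p = 0.511). At TB the signal was 573.2 and 510.2 in WT against 325.8 and 342.5 in QKD embryos. The order had turned again, with a difference of -0.69 ± 0.10 and a WT level 1.62-fold that of QKD (adjusted p = 0.00182).

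*fgfr4* encodes an FGF receptor tyrosine kinase, and its signal was above that of 95.2% of probe sets. At 30%E WT embryos gave 1073 and 1113 and QKD embryos 398.4 and 358.1, a difference of -1.53 ± 0.12 or 2.89-fold between means (adjusted p = 2.53e-05), and 59 probe sets had a lower value. At 75%E it was 2059 and 1655 in WT against 1166 and 1034 in QKD embryos, a difference of -0.75 ± 0.12 (adjusted p = 0.00314). At both stages the QKD arrays lay below the WT arrays.

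At TB the *fgfr4* signal was 2398 and 2394 in WT against 1917 and 1763 in QKD embryos. The arrays again did not overlap, but the difference of -0.38 ± 0.12 did not pass the test (adjusted p = 0.101). When samples were paired by replicate number (a replicate block inside each stage), the same difference passed (adjusted p = 0.0258).

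*dusp6* encodes a phosphatase that removes the activating phosphates from ERK, and in zebrafish embryos its transcription follows FGF signaling. The brighter probe set, above 88.0% of probe sets, gave 552.1 and 568.0 in WT against 302.2 and 302.9 in QKD embryos at 30%E. At 75%E it gave 833.7 and 1031 in WT against 508.0 and 490.8 in QKD embryos. At TB it gave 979.8 and 905.2 in WT against 559.1 and 496.4 in QKD embryos. QKD arrays were below WT arrays of the same stage each time, and the WT mean was 1.85-fold, 1.87-fold and 1.79-fold the QKD mean. The differences were -0.89 ± 0.12, -0.89 ± 0.12 and -0.84 ± 0.12 (adjusted p = 7.21e-04, 7.56e-04 and 0.00132), and this probe set was among the 79 (0.510%) that fell at all 3 stages.

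**Figure D2:**
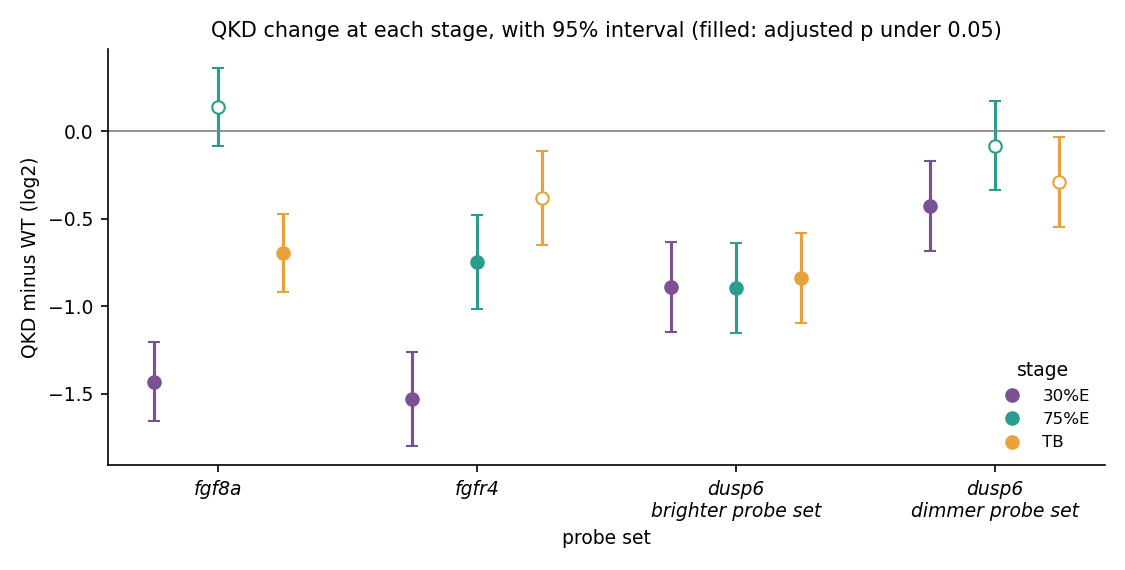
QKD minus WT difference in log2 (vertical axis) for the 4 probe sets (horizontal axis) at the 3 stages, with the 95% interval from limma; filled points passed an adjusted p under 0.05. The *fgf8a* difference goes from -1.43 to 0.14 and to -0.69, that of *fgfr4* from -1.53 to -0.75 and to -0.38, and that of the brighter *dusp6* probe set stays between -0.89 and -0.84.

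At 30%E 4 of the 4 probe sets fell, where 2.92% of all tested probe sets fell and 5.14% rose. At 75%E 2 of the 4 fell, against 3.90% of all (4.49% rose), and at TB again 2 of the 4, against 3.21% (3.15% rose). They were *fgfr4* and *dusp6* at 75%E and *fgf8a* and *dusp6* at TB. Averaged over the 3 stages and tested by exact permutation of the WT and QKD labels within stages (216 relabellings, two-sided, 5 such tests made, smallest possible p = 0.00926), the difference was -0.89 for *fgfr4* (p = 0.00926) and -0.87 for the brighter *dusp6* probe set (p = 0.00926). That of *fgf8a* was -0.66 (exact permutation p = 0.0556), with QKD below WT in 2 of the 3 stages. These relabellings do not keep same-numbered samples together. With exchange only within such pairs, a test chosen after seeing the data (64 relabellings, smallest possible p = 0.0313), the exact permutation p was 0.0313 for *fgfr4* and the brighter *dusp6* set, each lower in 6 of 6 pairs, and 0.125 for *fgf8a*, lower in 4 of 6.

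The second *dusp6* probe set was dim, above only 35.9% of probe sets, and followed the brighter one in part. It gave 41.3 and 41.8 in WT against 34.2 and 27.9 in QKD embryos at 30%E. At 75%E it gave 40.1 and 45.8 in WT against 39.2 and 41.9 in QKD embryos, and these groups overlapped. At TB it gave 47.8 and 49.7 in WT against 40.6 and 39.2 in QKD embryos. Its differences were -0.43 ± 0.12, -0.083 ± 0.12 and -0.29 ± 0.12 (adjusted p = 0.0459, 0.768 and 0.206).

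Averaged over the stages, the dim *dusp6* set differed by -0.27 (exact permutation within stages, two-sided p = 0.0185; within pairs 0.0313). The call of its fall at 30%E was lost with any of 9 of the 12 arrays left out in turn, and without QKD 30%E replicate 2 the difference was -0.28 (adjusted p = 0.406). Over the 12 arrays both *dusp6* probe sets correlated with r = 0.870, a description of probe sets that share every RNA sample and array. The brighter set showed the larger fall at each stage, by 0.46, 0.81 and 0.55 on the log2 scale, and averaged over stages the gap between them was -0.61 (exact permutation within stages, two-sided p = 0.00926; within pairs 0.0313). Which transcripts or exons either set reads was not analysed here.

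Whether the knockdown difference itself changed between stages was tested within the same fit. For *fgf8a* it changed at every step: the difference at 75%E was higher than that at 30%E by 1.57 ± 0.14 (adjusted p = 1.78e-04), and that at TB lower than that at 75%E by 0.83 ± 0.14 (difference -0.83, adjusted p = 0.0245). From 30%E to TB it moved by 0.74 ± 0.14 (adjusted p = 0.0133). Of all tested probe sets, 4.56%, 0.677% and 5.73% passed in these 3 contrasts.

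For *fgfr4*, the knockdown difference moved toward 0 by 0.78 ± 0.17 from 30%E to 75%E (adjusted p = 0.0273) and by 1.15 ± 0.17 from 30%E to TB (adjusted p = 0.00361), while the step from 75%E to TB gave 0.37 ± 0.17 (adjusted p = 0.543). For the brighter *dusp6* probe set the 3 changes were -0.0048, 0.055 and 0.050 with an SE of 0.17, and the 95% intervals were -0.37 to 0.36, -0.31 to 0.42 and -0.31 to 0.41. None of its 3 changes passed the test, and a change of up to about 0.4 in log2 is within those intervals. Leaving out 1 array ended the call of the *fgf8a* change from 75%E to TB in 6 of 12 cases (values -0.92 to -0.75). It ended that from 30%E to TB in 4 cases (0.65 to 0.82) and the *fgfr4* change from 30%E to 75%E in 5 (0.63 to 0.94). The 12 cases include the 4 arrays of the stage outside each contrast, which leave its value unchanged and ended none of these calls.

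The time courses within each group show the same values from the other side. In WT embryos *fgf8a* was level from 30%E to 75%E (-0.012 ± 0.10, adjusted p = 0.930) and rose by 0.82 ± 0.10 from 75%E to TB (adjusted p = 1.56e-04). In QKD embryos the order was reversed, with a rise of 1.56 ± 0.10 from 30%E to 75%E (adjusted p = 1.19e-07) and then -0.015 ± 0.10 to TB (adjusted p = 0.945). Stage changes were common: 57.2% and 27.8% of all probe sets passed in the WT steps and 60.4% and 22.2% in the QKD steps.

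*fgfr4* rose in both groups. In WT embryos it rose by 0.76 ± 0.12 and then by 0.38 ± 0.12 (adjusted p = 2.21e-04 and 0.0401). In QKD embryos it rose by 1.54 ± 0.12 and then by 0.74 ± 0.12 (adjusted p = 5.68e-07 and 0.00147). The smaller WT step from 75%E to TB was lost in 5 of the 12 cases with an array left out (0.22 to 0.53, adjusted p up to 0.248).

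The brighter *dusp6* probe set rose from 30%E to 75%E by 0.73 ± 0.12 in WT and 0.72 ± 0.12 in QKD embryos (adjusted p = 2.10e-04 and 2.00e-04). From 75%E to TB it gave 0.022 ± 0.12 and 0.077 ± 0.12 (adjusted p = 0.917 and 0.721). The dim *dusp6* set rose by 0.39 ± 0.12 in QKD embryos at the first step (adjusted p = 0.0124), a call lost without QKD 30%E replicate 2 (0.24) or QKD 75%E replicate 2 (0.34).

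Ordered by mean signal, the 6 groups fell into few levels, where neighbours are set apart by whether the 95% interval of their log2 difference reaches 0. For *fgf8a*, QKD 30%E was lowest (115.0), WT 75%E (307.3), WT 30%E (309.7), QKD TB (334.2) and QKD 75%E (337.8) formed a run of neighbours whose intervals cover 0, and WT TB was highest (541.7). For *fgfr4*, the order was QKD 30%E (378.3), then WT 30%E (1093) beside QKD 75%E (1100), then QKD TB (1840) beside WT 75%E (1857), then WT TB (2396). For the brighter *dusp6* probe set, QKD 30%E (302.5) was followed by QKD 75%E (499.4), QKD TB (527.7) and WT 30%E (560.0), neighbours whose intervals cover 0. Then came WT 75%E (932.6) and WT TB (942.5), which do not differ beyond their interval. For the dim *dusp6* set, QKD 30%E (31.1) was lowest, and the other groups (39.9 to 48.8) formed a run of neighbours whose intervals cover 0.

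For *fgfr4*, the QKD groups at 75%E and TB each stood next to the WT group of the preceding stage. In the order of *fgf8a* and of the brighter *dusp6* probe set they did not. In that of the dim *dusp6* set, QKD 75%E (40.5) stood next to WT 30%E (41.6), but QKD TB (39.9) not next to WT 75%E (43.0). Still, the 95% interval of the difference from the WT group of the preceding stage covered 0 for *fgf8a* and the dim *dusp6* set at both stages. It also covered 0 for the brighter *dusp6* probe set at 75%E. These groups were set side by side after the values had been seen, and are given as a description. *fgfr4* at 75%E in QKD embryos minus 30%E in WT embryos was 0.0076 (95% interval -0.26 to 0.28), and TB in QKD minus 75%E in WT embryos was -0.0062 (-0.28 to 0.26). For *fgf8a* these were 0.12 (-0.099 to 0.35) and 0.12 (-0.10 to 0.35). For the brighter *dusp6* probe set they were -0.17 (-0.42 to 0.091) and -0.82 (-1.07 to -0.56). At TB this probe set was thus also below the WT level of the stage before. The dim *dusp6* set did not show this, with -0.038 (-0.29 to 0.22) and -0.10 (-0.36 to 0.15).

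The rest of the pathway was followed in lists of 127 names, of which 68 genes were measured, the 3 genes above not included. At 30%E 7 of the 68 fell and 4 rose (10.3% and 5.88%, beside 2.92% and 5.14% of all tested probe sets). At 75%E 2 fell and 4 rose (2.94% and 5.88%, beside 3.90% and 4.49%), and at TB 2 fell and 3 rose (2.94% and 4.41%, beside 3.21% and 3.15%). The median difference of the 68 was -0.029, 0.0012 and -0.0013 at the 3 stages, beside -0.025, -0.017 and 0.013 over all tested probe sets. With the replicate block inside each stage, 10 fell and 8 rose at 30%E, 8 and 12 at 75%E, and 7 and 11 at TB. The block also called more of all tested probe sets, 2210, 2622 and 2109 in either direction in place of 1249, 1301 and 986. The shares given above are from the fit without the block, so they are no background for these block counts. Of the 22 changes called without the block, 4 kept their call with any single array left out (*cdx4* and *fgf3* at 30%E, *il17rd* and *spry4* at 75%E).

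**Figure D3:**
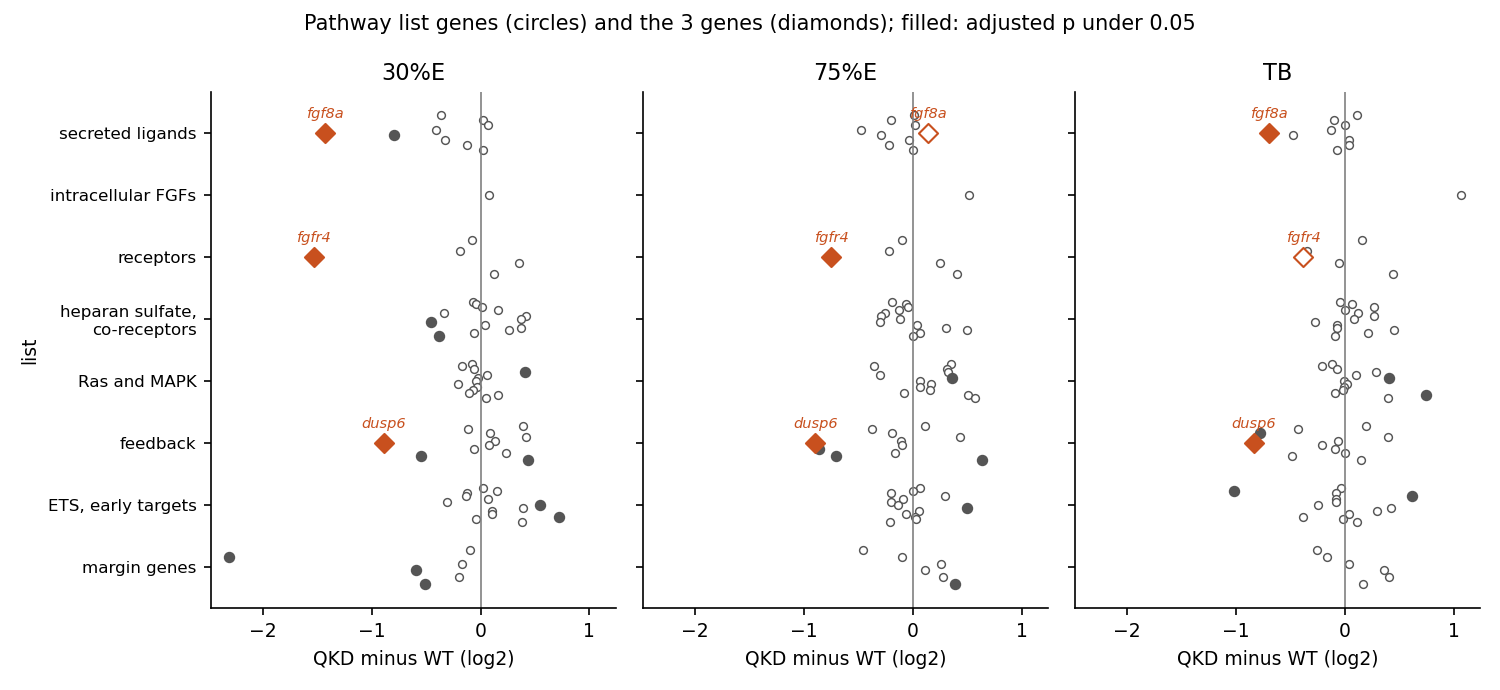
QKD minus WT difference in log2 (horizontal axis) at 30%E, 75%E and TB for genes of the FGF pathway lists (circles, 1 row per list) and for *fgf8a*, *fgfr4* and the brighter *dusp6* probe set (orange diamonds, in the row of their role). Filled symbols passed an adjusted p under 0.05. Most circles lie near 0, and the circle farthest to the left is *cdx4* at 30%E (-2.31).

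Of 24 secreted ligands 8 were measured. *fgf3*, which acts with *fgf8a* at the zebrafish margin and in the hindbrain, fell at 30%E (44.1 and 40.2 in WT, 27.5 and 21.4 in QKD embryos, -0.80 ± 0.13, adjusted p = 0.00296). Its later values were -0.29 ± 0.13 and -0.47 ± 0.13 (adjusted p = 0.229 and 0.0606; with the replicate block 0.0763 and 0.0128). *fgf24*, a margin and fin bud ligand of zebrafish, gave -0.41, -0.47 and -0.13 (adjusted p = 0.145, 0.0823 and 0.782; with the replicate block 0.0162, 0.00801 and 0.462). The median of the 8 ligands was -0.23 at 30%E and -0.12 and -0.031 after that. Their mean WT signals at 30%E were 9.8 to 46.9, below the median of every array (73.5 or more), and RMA tends to compress differences at low signal. *fgf17* had no probe set under its name.

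At 30%E and 75%E the other receptor genes gave values nearer to 0 than *fgfr4*, a contrast between genes that was not tested. At TB *fgfrl1a* was farther from 0 (0.44, against -0.38 for *fgfr4*). *fgfr1a*, *fgfr2*, *fgfr3* and the decoy receptor gene *fgfrl1a* gave values between -0.35 and 0.44 over the 3 stages, with adjusted p of 0.149 to 0.933. With the replicate block, *fgfr3* at 30%E (0.35, adjusted p = 0.0242) and *fgfrl1a* at 75%E and TB (0.41 and 0.44, adjusted p = 0.0243 and 0.0202) passed as higher, and *fgfr2* at TB (-0.35, adjusted p = 0.0320) as lower. At 30%E, where *fgfr4* fell by 1.53, they were -0.082 ± 0.14, -0.19 ± 0.13, 0.35 ± 0.14 and 0.12 ± 0.19. Their mean WT signals there were 93.9, 21.8, 32.1 and 9.96, against 1093 for *fgfr4*, and RMA tends to compress differences at low signal. Of 13 heparan sulfate and co-receptor genes, *hs6st2*, which adds sulfate to heparan chains, and *sdc4*, a syndecan, fell at 30%E (-0.45 ± 0.10 and -0.38 ± 0.10, adjusted p = 0.0169 and 0.0451). A second *sdc4* probe set gave -0.12 (adjusted p = 0.645). Of 13 Ras and MAP kinase genes, the adaptor gene *grb2a* rose at 30%E, *hrasb* at 75%E and TB and the phosphatase gene *ptpn11b* at TB, by 0.36 to 0.75 (adjusted p = 0.0400, 0.0450, 0.0299 and 0.0385). Second probe sets at these stages did not pass, with 0.20 for *grb2a* (adjusted p = 0.609) and 0.39 and 0.34 for *hrasb* (adjusted p = 0.0584 and 0.112). *ptpn11b* was dim, with means of 17.6 in WT and 29.7 in QKD embryos at TB.

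Feedback genes other than *dusp6* moved in both directions. Of 10 measured, *spry2* fell at 30%E and 75%E (-0.55 ± 0.13 and -0.71 ± 0.13, adjusted p = 0.0246 and 0.00684) and gave -0.48 ± 0.13 at TB (adjusted p = 0.0551; with the replicate block 0.00724). *spry4*, another Sprouty gene, rose at the first 2 stages, from 122.2 and 105.3 in WT to 153.6 and 153.6 in QKD embryos at 30%E (0.44 ± 0.11, adjusted p = 0.0294) and from 419.2 and 434.1 to 627.7 and 703.8 at 75%E (0.64 ± 0.11, adjusted p = 0.00381). At both stages the *spry4* and *spry2* arrays of QKD and WT embryos lay on opposite sides. Median centring of the arrays left *spry4* at 30%E just short of the threshold (0.40, adjusted p = 0.0502).

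*spry2* had 2 further probe sets. The brighter of these fell at all 3 stages (-0.61, -0.82 and -0.40), and the dim one gave 0.011, -0.080 and 0.029. *il17rd*, whose product binds FGF receptors, fell at 75%E, with 481.7 and 625.6 in WT against 276.2 and 331.9 in QKD embryos (-0.86 ± 0.14, adjusted p = 0.00261), and gave -0.063 and -0.087 at 30%E and TB. *dusp2*, of the same phosphatase family as *dusp6*, fell at TB (-0.78 ± 0.13, adjusted p = 0.00442) from 61.0 and 46.6 in WT to 33.5 and 29.0 in QKD embryos.

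Among 13 ETS factor and early target genes, *etv4* and *etv5b*, often used as FGF readouts in zebrafish, were not called lower at any of the 3 stages. *etv4* itself gave -0.31 ± 0.15, -0.20 ± 0.15 and -0.077 ± 0.15 (adjusted p = 0.295, 0.502 and 0.893; at 30%E 0.0448 with the replicate block). *etv5b* rose at 75%E, from 1559 and 1965 in WT to 2419 and 2543 in QKD embryos (0.50 ± 0.12, adjusted p = 0.0215), and was 0.39 and 0.42 at 30%E and TB (adjusted p = 0.0661 and 0.0551; with the replicate block 0.0205 and 0.0159). *etv5a* rose at 30%E (0.54 ± 0.10, adjusted p = 0.00558), on its second probe set too (0.75). The zinc finger gene *egr2b*, a hindbrain marker, fell at TB (-1.01 ± 0.22, adjusted p = 0.0174), with WT arrays at 73.3 and 40.9 and QKD arrays at 29.6 and 24.8. Without WT TB replicate 1 its difference was -0.59 (adjusted p = 0.0940). *ier2a* rose at 30%E and *ets1* at TB.

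Of 6 measured margin genes that depend on FGF in zebrafish, 3 fell at 30%E, where 2.92% of all tested probe sets fell. *cdx4*, a homeobox gene of posterior tissue, went from 140.9 and 138.3 in WT to 29.9 and 26.7 in QKD embryos (-2.31 ± 0.097, adjusted p = 3.84e-07), *tbxta* (brachyury) by -0.51 ± 0.098 (adjusted p = 0.00716) and *tbx16* by -0.59 ± 0.15 (adjusted p = 0.0302). A second, dimmer *tbx16* probe set gave -0.25 (adjusted p = 0.947). At 75%E *tbxta* rose (0.39 ± 0.098, adjusted p = 0.0313), and *cdx4* and *tbx16* were at -0.10 and 0.12 (adjusted p = 0.634 and 0.730).

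In RNA of whole embryos, fewer cells that express a gene and less RNA per cell cannot be told apart, so marker lists were read beside these values. Of 6 margin and mesoderm markers, 4 fell at 30%E, where 2.92% of all tested probe sets fell. The summed signal of the 6 was 8251 to 8983 in WT and 5694 to 6297 in QKD embryos. *tbxta*, *tbx16*, *tbx6* and *msgn1* are also on the list of margin genes that depend on FGF, so these lists are not independent. At 75%E 1 of the 6 rose and the sums were 8804 to 9399 in WT and 10133.6 to 10834 in QKD embryos. At TB the sums were 7095 to 7519 and 7857 to 8339.

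Markers of other tissues also moved at 30%E, the stage at which all 4 probe sets fell. Of 5 enveloping layer markers 2 keratin genes fell (*krt5* -0.96 and *krt17* -1.07), with sums of 2778 to 3538 in WT and 1699 to 2728 in QKD embryos. Of 4 endoderm markers *gata5* and *foxa2* fell (-0.88 and -0.78) and *sox17* rose (0.43), with overlapping sums of 972.3 to 1231 and 878.9 to 1069. Of 4 yolk syncytial layer markers *slc26a1* fell (-1.30), with sums of 1129 to 1187 and 951.7 to 1048. Of 5 neural ectoderm markers *hesx1* fell (-1.09), with sums of 5217 to 5434 and 5621 to 5800. These sums include *sox19a*, a target of the MOs, with means of 1916 in WT and 2534 in QKD embryos. Per the authors, *sox19a* is at first expressed in the whole blastoderm, so at 30%E the sums do not mark neural ectoderm alone. Means of the other neural ectoderm markers were 3312 and 3095 (*zic2b*), 37.0 and 17.4 (*hesx1*), 33.6 and 27.0 (*otx2b*) and 27.3 and 37.0 (*neurog1*). Of 6 organizer markers *foxa2* fell, with overlapping sums of 3322 to 3563 and 3207 to 3465. At 75%E and TB *hesx1* (-4.25 and -2.72), *neurog1* (-1.39 and -3.74) and *chrd* (-0.79 and -1.82) fell, as did *apoa4b.1* at TB (-1.16). *sox19a* rose at both stages (0.51 and 0.53) and *noto* at TB (0.89).

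Of 7 midbrain-hindbrain boundary markers, *gbx1* fell (-1.64) and *en2b* rose (1.38) at 30%E, *her5* fell at 75%E (-0.97) and *gbx2* at TB (-0.92). The *en2b* rise was between dim values, means of 11.8 in WT and 30.8 in QKD embryos, beside array lower quartiles of 20.6 to 24.1. The sums of the 7 were 927.8 to 995.7 in WT and 1068 to 1200 in QKD embryos at 30%E, 873.3 to 1055 and 599.0 to 675.4 at 75%E, and 1275 to 1336 and 1202 to 1227 at TB. At 30%E most of each sum was *her5* (means 699.4 in WT and 963.1 in QKD embryos). *pax2a* and *en2a* were dim at 30%E too (WT means 21.3 and 9.08), so values of this list at that stage are not read as this boundary. At TB *pax2a*, a defining gene of that boundary, was at -0.33 and *en2a* at -0.34 (adjusted p = 0.145 and 0.390). There *wnt1*, *her5* and *en2b* were at -0.074, -0.050 and -0.046, and *gbx1* at 0.27 (adjusted p = 0.882, 0.947, 0.911 and 0.51). With the replicate block inside each stage, 2 of the 7 fell and 0 rose at TB. The block called 2109 of all tested probe sets at TB in place of 986. The part of this boundary in the *fgf8a* fall at TB was not tested.

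Of 6 epidermal and ventral ectoderm markers 1, 4 and 4 fell at the 3 stages, where 2.92%, 3.90% and 3.21% of all tested probe sets fell. The sums in WT embryos were 7076 to 7903, 19466 to 20494.5 and 19445.1 to 19673.4. In QKD embryos they were 4951 to 6229, 18315.2 to 19255.1 and 17676.4 to 17928.6. Most of each sum was *krt8* and *krt18a.1* (means 10594.1 and 6374 in WT at 75%E), so the sums say little of the other 4 markers. *gata2a* fell at each stage (-0.96, -0.76 and -0.66). *tp63* and *foxi1* were at -0.19 and 0.11 at 30%E (adjusted p = 0.568 and 0.813), where their mean WT signals were 49.4 and 164.6. Both fell at 75%E (-1.14 and -1.86) and TB (-2.17 and -2.15), as did *dlx3b*. The keratin genes *krt8* and *krt18a.1* were at 0.054 and 0.033 at 75%E.

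Of 6 genes of p53 and cell death, listed for a possible response to injection, *bbc3* rose at 75%E (0.62), and *bbc3*, *mdm2* and *ccng1* rose at TB. Their sums were 5415 to 6194 in WT and 5673 to 6189 in QKD embryos at 30%E, 3680 to 3815 and 4268 to 4545 at 75%E, and 3021 to 3388 and 4411 to 5061 at TB. Most of each sum was *ccng1* (mean 4714 in WT at 30%E). The authors saw no abnormality with mismatch MOs and an unaltered QKD phenotype with a p53 MO added, but neither was put on these arrays. RMA gives every probe set a value above 0, so no marker could be read as absent, and the part of these tissues and responses in the values of the 3 genes was not tested.

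The genes whose log2 signal most resembled each of the 3 over the 12 arrays were taken from 3329 genes that varied with an SD of 0.5 or more. These correlations describe arrays that share 6 groups and their stage changes, and carry no p. The genes were picked for likeness on these same arrays, so that they share the course of a member follows in part from the choice. For *fgfr4* the closest was *sp8b*, an Sp family zinc finger gene, with r = 0.993, followed by *naca* (nascent polypeptide complex), *scamp5a*, *tgif1* (a homeodomain repressor) and *atp1b1a* (a sodium pump subunit) at 0.974 to 0.949. *sp8b* gave 77.9 and 94.4 in WT against 13.1 and 11.1 in QKD embryos at 30%E, and its differences of -2.83, -1.44 and -0.83 shrank over the stages in the order seen for *fgfr4*. For *fgf8a* the closest were *naca* (0.955), *cst3* (a cystatin), *sp8b*, *fgfr4* (0.925) and *atp1b1a* (0.910).

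For *dusp6* the closest were others. *tfap2c* (r = 0.981), *crabp2b* (a retinoic acid binding protein), *pfn1* (profilin), *tfap2a* and *tmem38a* (0.966) each fell at all 3 stages, as did the brighter *dusp6* probe set they were picked to resemble. *tfap2c*, an AP-2 factor of the non-neural ectoderm, gave 161.3 and 145.9 in WT against 26.2 and 21.1 in QKD embryos at 30%E, and its differences were -2.71, -2.28 and -2.61. Among the 3 genes themselves, r was 0.925 between *fgf8a* and *fgfr4*, 0.877 between *fgfr4* and *dusp6*, and 0.809 between *fgf8a* and *dusp6*.

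**Figure D4:**
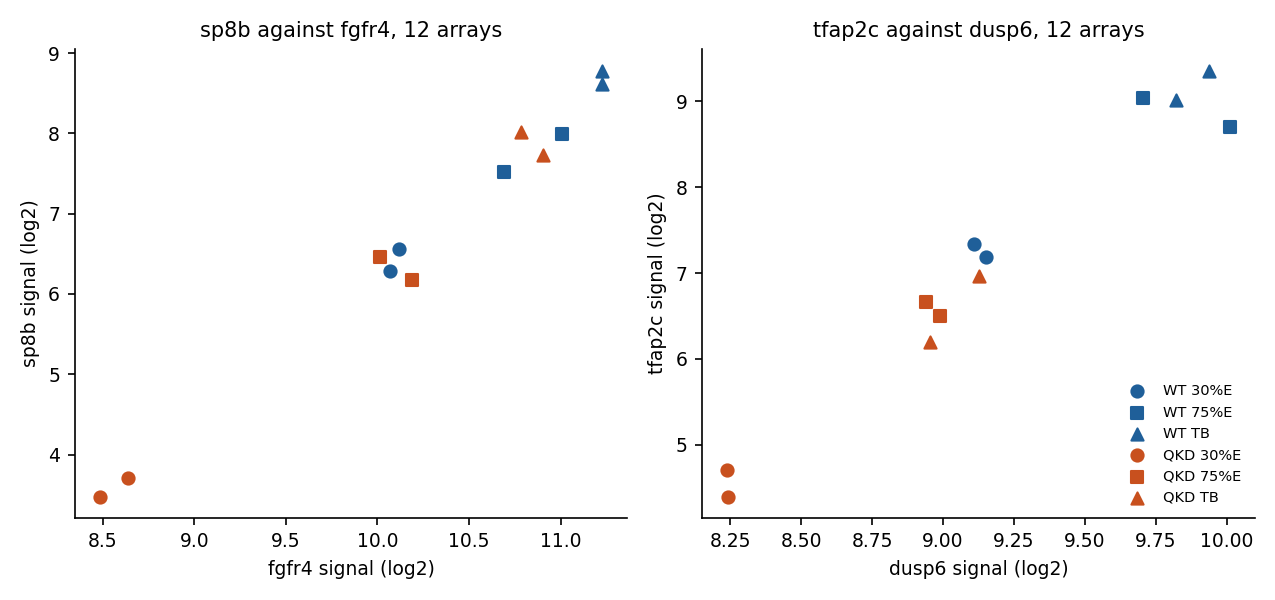
Log2 signal on each of the 12 arrays: *sp8b* against *fgfr4* on the left and *tfap2c* against *dusp6* on the right. Blue is WT and orange QKD, and circles, squares and triangles are 30%E, 75%E and TB. In the left panel QKD arrays of 75%E and TB lie beside the WT arrays of the stage before (r = 0.993). In the right panel QKD arrays of 75%E and TB lie near the WT arrays of 30%E (r = 0.981).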

How the data were processed

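RNA of 12 samples of zebrafish embryos (6 groups of 2) was measured on Affymetrix arrays. The authors processed them with RMA (version not given in the sources used here), which corrects background, brings arrays to a common distribution and summarises probes, and deposited linear intensity values. Which arrays were processed together is not given. RMA tends to compress differences at low signal. Here log2 was taken, 115 control probe sets of 15617 were left out, and 15502 were tested in R 4.3.3 with limma 3.58.1 (lmFit, eBayes) as 6 group means over all 12 arrays (degrees of freedom: 6 residual, 5.11 prior). P-values were adjusted by Benjamini-Hochberg over all tested probe sets (threshold 0.05). The annotation gives 1 gene symbol to 10795 probe sets, several to 135 and none to 4572. For list genes the brightest probe set was used. Other steps were run in Python 3.11.15, and the fit was tested on simulated data.

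The 3 genes and all lists were chosen with earlier results of these data known. Values are given for a fixed set of list genes and for list genes called with at least 2-fold change, and further called list genes were named after their values were seen. The 5 most similar genes (SD of 0.5 or more) are named for each of the 3. *sox* genes, second probe sets and marker genes are named where a result touches them.

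Same-numbered WT and QKD samples of a stage deviated together from their group means (r = 0.615, 0.443 and 0.488 at 30%E, 75%E and TB, against -0.084 to 0.183 in 12 pairs of groups of different stages). The numbers in the labels thus pair samples within a stage by these values, and the pairing is not stated by the authors. Alternatives were median centring, a further quantile normalization, a fit per stage, a variance trend, a filter at the 40th percentile of signal, replicate blocks, a ratio of mean signals over 2, a t-test on log2, other thresholds, and each array left out in turn. Promoter and protein sequences were not used here.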

Additional observations from a re-analysis of the deposited data

Results flagged for a closer look

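The knockdown difference (QKD minus WT, log2) changed between stages by the limma contrast in 5 cases. For *fgf8a* the change was 1.57 from 30%E to 75%E (adjusted p = 1.78e-04), -0.83 from 75%E to TB (adjusted p = 0.0245) and 0.74 from 30%E to TB (adjusted p = 0.0133). For *fgfr4* it was 0.78 from 30%E to 75%E (adjusted p = 0.0273) and 1.15 from 30%E to TB (adjusted p = 0.00361). The brighter *dusp6* probe set, with changes of -0.0048, 0.055 and 0.050, did not pass (adjusted p = 0.994, 0.963 and 0.931).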

How the results depend on the processing

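Of 662 values of the 4 probe sets under alternatives, 597 kept their direction and side of the threshold. The replicate blocks, the variance trend, the filter and the fit per stage return the same difference and can change only its p. The same holds for leaving out an array outside the groups compared. The count of 597 thus follows in part from the choice of alternatives. The falls of *fgf8a* at 30%E and TB, of *fgfr4* at 30%E and 75%E and of the brighter *dusp6* probe set at 3 stages kept their call under every left-out array, normalization and block run. A ratio of means over 2 was reached by *fgf8a* and *fgfr4* at 30%E, and the log2 ratios of the other called differences were -0.70 (*fgf8a*, TB), -0.76 (*fgfr4*, 75%E), -0.89, -0.90 and -0.84 (brighter *dusp6*) and -0.42 (dim *dusp6*, 30%E). The replicate block within stages added the call of *fgfr4* at TB (-0.38, adjusted p = 0.0258) and changed no other call of these probe sets; the additive replicate block took away that of dim *dusp6* at 30%E (-0.43, adjusted p = 0.0517). That call was also lost with a second quantile normalization (-0.38), a variance trend (-0.43) and a fit per stage (-0.43), and the probe set is left out by the filter at the 40th percentile. Median centring gave 0.35 for *fgfr4* from WT 75%E to TB (adjusted p = 0.0597), 0.021 for the change of the *dusp6* difference from 30%E to 75%E and -0.0057 for WT *dusp6* from 75%E to TB; the latter are uncalled values near 0 that changed sign.

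With each array left out, called values that lost their call ranged as follows: *fgf8a* difference, 75%E to TB -0.92 to -0.75 and 30%E to TB 0.65 to 0.82; *fgfr4* difference, 30%E to 75%E 0.63 to 0.94, and WT 75%E to TB 0.22 to 0.53; dim *dusp6*, 30%E -0.57 to -0.28 and QKD 30%E to 75%E 0.24 to 0.54. Uncalled values that changed sign were *fgf8a* WT 30%E to 75%E (-0.066 to 0.043) and QKD 75%E to TB (-0.054 to 0.023); brighter *dusp6* difference 30%E to 75%E (-0.16 to 0.15), 75%E to TB (-0.098 to 0.21) and 30%E to TB (-0.035 to 0.14), WT 75%E to TB (-0.13 to 0.18) and QKD 75%E to TB (-0.0084 to 0.16); and dim *dusp6* at 75%E (-0.18 to 0.013), its difference 30%E to TB (-0.0073 to 0.29), WT 30%E to 75%E (-0.051 to 0.14) and QKD 75%E to TB (-0.069 to 0.027).

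Of the 4 probe sets, the t-test on log2 called 3, 1 and 4 at an unadjusted p under 0.05 and 0 at each stage after adjustment, as it did of all probe sets (2295, 1793 and 2014 unadjusted). With at least 2-fold change 2, 0 and 0 were called. The share of all probe sets under the 2-fold rule is not given here, so these counts and those of list genes below have no background. Of list genes, at 30%E, 75%E and TB, 1, 0 and 1 fell and 0, 0 and 0 rose by at least 2-fold, and with an array left out 2 to 7, 1 to 3 and 0 to 3 fell and 0 to 5, 1 to 4 and 0 to 4 rose. The block within stages gave 10, 8 and 7 that fell and 8, 12 and 11 that rose, median centring 2 that rose at 30%E and 4 that fell at TB, and counting every probe set 5 that rose at TB. Over all probe sets, the block called 2210, 2622 and 2109 in place of 1249, 1301 and 986. The cause of these changes was not tested.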

Other observations

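2 FGF binding protein genes, which were on none of the lists and were looked up after the other values had been seen, were measured. *fgfbp1a*, whose product releases FGFs from the matrix, fell at TB, from 92.6 and 71.5 in WT to 55.7 and 49.4 in QKD embryos (-0.63 ± 0.17, limma, adjusted p = 0.0471), and was at 0.13 and -0.085 at 30%E and 75%E (adjusted p = 0.801 and 0.843). *fgfbp2a* was dim, between 9.58 and 13.5 on the 12 arrays, and gave -0.15, 0.12 and 0.13 (adjusted p = 0.590, 0.600 and 0.648). *fgf13a*, an intracellular FGF homologous factor of neurons, had at TB a signal of 38.8 and 26.1 in WT embryos and of 100.5 and 44.4 after QKD. Its difference of 1.07 ± 0.30 did not pass the test (adjusted p = 0.0619) and passed with the replicate block inside each stage (adjusted p = 7.96e-04).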
